A study of Mus musculus with 4 samples.

Results

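The genes of the cytosolic ribosome, 40 genes for the proteins of the small and large subunits, were examined in blood progenitors of wild-type and Trib1-/- mice. They were chosen by symbol on the platform annotation (Rps or Rpl followed by a number, with or without a final a or x, Rplp0 to Rplp2, Rpsa and Fau), using probe sets that name a single gene. Of 43 genes with such a symbol, 40 reached the floor on at least 1 array and were kept, out of 11653 named genes that did so and 18193 named genes in all. The floor is the median of all values of the table, 3.29 on the log2 scale. Where several probe sets named a gene, the one brightest on average was used. The 3 genes below the floor were Rps27, whose highest value was 2.63, Rps16 (highest 1.21) and Rpl37 (highest 0.98), and the kept gene nearest to it was Rpl12, whose highest value was 4.27. Other ribosomal protein genes of the mouse, Rps27a, Rpl5 and Rplp1 among them, had no probe set that named them alone and are not analysed here one by one. The 40 genes comprise 19 of the small subunit and 21 of the large subunit.

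The study sorted granulocyte monocyte progenitors (GMP), which form granulocytes and monocytes, and cells labelled MDP, with the cell type given as macrophage dendritic cell. Both came from wild-type and Trib1-/- mice of a mixed C57BL6J/129SV background, were unstimulated and received no treatment. Trib1 encodes a pseudokinase of the Tribbles family. Each genotype of each progenitor is 1 Affymetrix array, 4 in all, so no difference has a replicate check, no test was made, and a feature of 1 array cannot be told apart from its genotype or cell type. The sources used here do not give age, sex, the sort gates or the number of animals behind an array. Where 4 values are listed for a gene, they are wild-type then Trib1-/- GMP, followed by the MDP pair in the same order. All values are log2 values, and a difference of 1 is 2-fold.

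A ribosome is built from ribosomal RNA and one copy of nearly every ribosomal protein, and the protein genes are usually expressed together. Their messages begin with a run of pyrimidines, the terminal oligopyrimidine tract, through which the mTOR pathway controls how well they are translated. Blood formation is sensitive to the supply of these proteins: loss of a single copy of one of several of them causes Diamond-Blackfan anaemia.

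A pyrimidine run at the transcription start was more frequent in these genes than in others, though not present in all of them. Genes from both ends of the range of genotype differences in GMP are shown, in RefSeq sequence of build GRCm38.p6, from 40 bases before the start to 20 bases from it, with the longest run of pyrimidines near the start in capitals. Rplp2 lies at chr7:141447611-141447670 (+), Fau lies at chr19:6057907-6057966 (+), Rps15 lies at chr10:80292391-80292450 (+), Rps6 lies at chr4:86857348-86857407 (-), and all 4 read at least 2-fold lower on the array of Trib1-/- GMP. Rpl37a lies at chr1:72711220-72711279 (+), Rpl39 lies at chrX:37085203-37085262 (-), Rpl35 lies at chr2:39005112-39005171 (-), Rps25 lies at chr9:44407674-44407733 (+), and these are among the 6 genes with the smallest decrease or an increase.
Rplp2: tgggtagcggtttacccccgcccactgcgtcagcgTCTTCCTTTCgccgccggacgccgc
Fau: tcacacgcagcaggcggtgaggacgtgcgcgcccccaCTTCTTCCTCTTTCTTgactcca
Rps15: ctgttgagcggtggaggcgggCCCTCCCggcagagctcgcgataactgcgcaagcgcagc
Rps6: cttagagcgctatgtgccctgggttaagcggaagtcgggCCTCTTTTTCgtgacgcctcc
Rpl37a: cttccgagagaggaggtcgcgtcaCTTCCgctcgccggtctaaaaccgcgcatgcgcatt
Rpl39: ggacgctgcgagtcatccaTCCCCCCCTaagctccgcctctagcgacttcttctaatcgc
Rpl35: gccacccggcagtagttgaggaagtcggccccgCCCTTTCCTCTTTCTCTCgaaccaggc
Rps25: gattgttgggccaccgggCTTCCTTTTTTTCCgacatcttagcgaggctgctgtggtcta

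The run crosses the start in Rplp2 (10 bases), Fau (16 bases), Rps6 (10 bases) and Rpl35 (18 bases). In Rps15, Rpl37a, Rpl39 and Rps25 the longest run lies wholly before the annotated start. Other genes of these ends were looked at but are not shown. In them the run crosses the start in Rps9, Rpl14 and Rps10 (lower end) and Rpl7a (upper end). It lies wholly after the start in Rpl12 (lower end) and Rps2 (upper end). Both kinds shown are thus found at both ends, but at the lower end only Rps15 has the run before the start. Promoter entries were matched for 35 of the 40 genes, with 41 starts. A run of at least 10 pyrimidines on the gene's strand, overlapping the 20 bases on either side of the start, was present at 17 of these 41 starts (41.5%), against 10.4% of the 21262 starts of all protein-coding genes in the table. The median longest run was 9 bases at the starts of ribosomal protein genes and 5 bases at all starts. Genes with a run of at least 8 (20 genes) had a median difference between the GMP genotypes of -0.68, and the other 15 had one of -0.56. The differences ran from -1.26 to 1.10 in the first set and from -1.10 to 0.13 in the second, so the sets overlap widely.

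Motifs were searched as exact letters on both strands in the 300 bases around each start (250 before, 50 after), and matches of different motifs could overlap. CCGGAAG, the core bound by ETS family factors, was found at 17 of 41 starts (41.5%) against 11.6% of all starts. GGGCGG, the GC box, was found at 53.7% against 46.2%, and CACGTG, the E-box bound by Myc among others, at 12.2% against 7.84%. AAGATGGC, the YY1 element, was found at 7.32% against 3.05%, and TGACGTCA, the cyclic AMP response element, at 7.32% against 2.23%. TATAAA was about as frequent at these starts (12.2%) as at all starts (12.6%). These are matches of letters and not measured binding.

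The ribosomal protein genes were read highest on the array of wild-type GMP. Their median was 9.75 there and 9.06 in the Trib1-/- counterpart. For MDP it was 8.89 in wild type and 8.58 in the array labelled Trib1-/-. The median of all 11653 genes was 4.85, 4.75, 4.72 and 4.71 in the same order. The processing (RMA) makes the arrays' distributions alike, so that median was held nearly level in advance. Wild-type GMP was the highest of the 4 arrays in 37 of the 40 genes, against 37.1% of all genes. The exceptions, Rps25, Rps2 and Rpl35, were highest in wild-type MDP. The full order, wild-type GMP above Trib1-/- GMP above wild-type MDP above Trib1-/- MDP, was found in 28 of the 40 genes, against 10.5% of all genes. Trib1-/- MDP was the lowest array in 34 of the 40 (23.8% of all genes), and Trib1-/- GMP lay above wild-type MDP in 30 (50.3% of all genes). All but 1 of the 40 genes (39) exceeded the floor on every array. The exception, Rpl12, exceeded it in wild-type GMP alone, so wild-type GMP had to be its highest array.

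**Figure D1:**
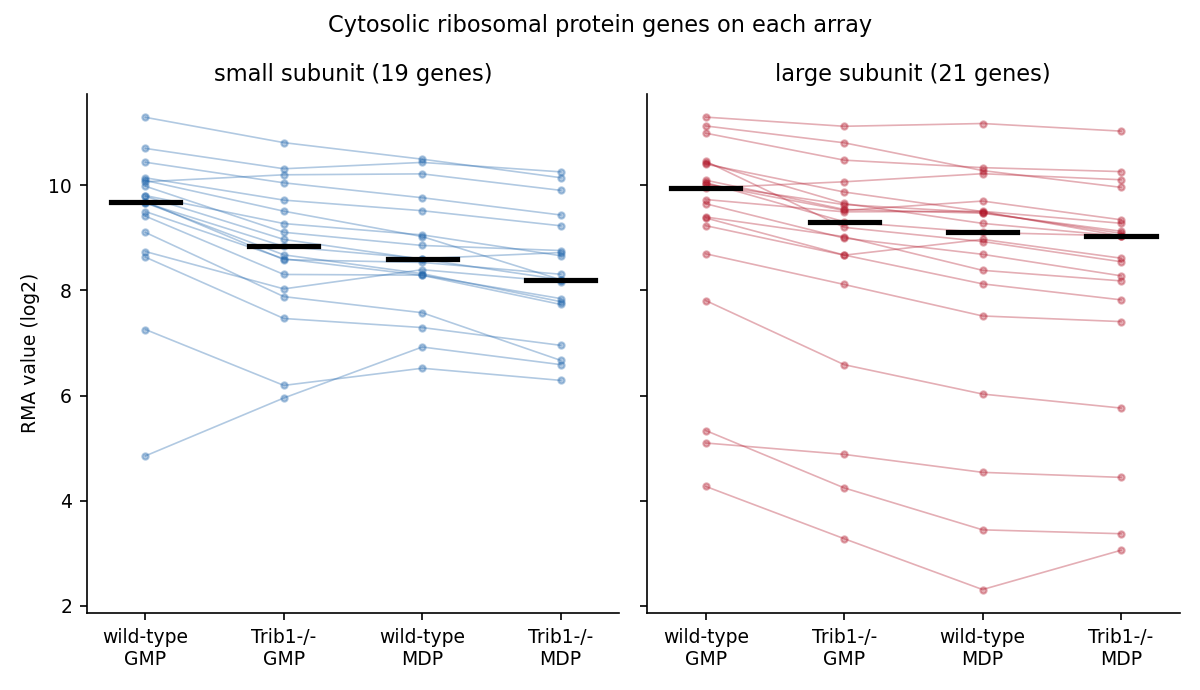
Values of the 40 ribosomal protein genes on each array (log2, vertical axis), small subunit on the left and large subunit on the right, with 1 line per gene and a black bar at the median of the subunit. The bars step down from wild-type GMP to Trib1-/- MDP in both subunits, and Rps25, the lowest line in wild-type GMP on the left, runs the other way.

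The first comparison asked how the genotypes differ in GMP. In the array labelled Trib1-/-, 37 of the 40 ribosomal protein genes were lower than in wild type, against 55.2% of all genes. The median difference was -0.58, with quartiles of -0.92 and -0.39, and the median of all genes was -0.06. By at least 2-fold, 8 of the 40 genes were lower, against 3.16% of all genes, and 1 was higher, Rps25, against 0.481%. Ribosomal protein genes read high on these arrays, so 256 other genes at that level were set beside them (mean of at least 8.43, the lower quartile of the ribosomal protein genes). Those had a median of -0.04, with 57% below 0 and 1 gene at least 2-fold lower. This is a level cut and not a matched list. Of the 8 ribosomal protein genes at least 2-fold lower, Rps14, Fau, Rps6, Rpl8 and Rpl14 had means under the cut (7.81, 7.58, 6.56, 6.54 and 4.10). The 8 genes at least 2-fold lower became 5 with each array centred on the median of genes at or above the floor, and 4 with centring on brighter genes, while the share below 0 stayed at 92.5%.

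Among the genes that stood lowest in Trib1-/- GMP, Rplp2, an acidic protein of the stalk that recruits elongation factors, read 10.45, 9.20, 8.93 and 8.54. The difference between the GMP genotypes was -1.26, the most negative of the 40 and 2.39-fold. Rps14, a platform protein of the small subunit whose loss underlies the anaemia of the 5q- syndrome, read 9.10, 7.88, 7.57 and 6.67. It was 2.33-fold lower in Trib1-/- GMP, and its value in Trib1-/- MDP was lower still. Rpl8, which lies next to the peptidyl transferase centre, read 7.80, 6.59, 6.03 and 5.76, and was likewise 2.33-fold lower in Trib1-/- GMP. Fau, translated as a ubiquitin-like protein fused to the small subunit protein S30, read 8.63, 7.46, 7.29 and 6.95 (2.24-fold lower in Trib1-/- GMP). In these 4 genes the step between the GMP genotypes was larger than the step from Trib1-/- GMP to wild-type MDP.

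Rps9, near the channel where messenger RNA enters, read 9.41, 8.30, 8.29 and 7.84. Rps15, of the small subunit head, read 9.68, 8.58, 8.53 and 8.31. By these probe sets, Trib1-/- GMP and wild-type MDP were close together in both genes, more than 2-fold below wild-type GMP. The other probe set of Rps15 kept this pattern (8.25, 7.11, 6.98 and 6.86). The other Rps9 probe set above the floor did not. It read 8.99, 7.85, 7.07 and 7.96, with a difference of 0.90 between the MDP genotypes. Rps6, the protein phosphorylated by S6 kinase downstream of mTOR, read 7.25, 6.19, 6.52 and 6.29. It was 2.09-fold lower in Trib1-/- GMP, where it stood below both MDP arrays. Rpl14, of the large subunit, was the remaining gene past 2-fold, at 5.33, 4.24, 3.45 and 3.37 (2.13-fold lower in Trib1-/- GMP). With 32 added to the linear values its GMP difference was -0.51, under 2-fold.

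The 6 genes at the other end held 3 that were above 0. Rps25, a head protein that some viral messages need for initiation, read 4.85, 5.95, 6.92 and 6.59, so that wild-type GMP was its lowest array and Trib1-/- GMP was 2.14-fold higher. A single probe set names it alone, so no second reading of it was made, and with 32 added to the linear values it was under 2-fold. Rps2, near the entry channel, read 10.06, 10.20, 10.21 and 9.90, and Rpl35, at the exit of the peptide tunnel, read 9.95, 10.06, 10.22 and 10.10. These 2 genes differed between the GMP genotypes by 0.13 and 0.12, less than the 0.27 by which probe sets of a single gene typically spread (SD over genes with several). Rpl7a, which binds the large ribosomal RNA, read 11.29, 11.12, 11.17 and 11.03, and its difference, -0.17, became 0.01 under cyclic loess scaling. Rpl39, which lines the tunnel, read 5.10, 4.88, 4.54 and 4.44, and Rpl37a, a zinc finger protein, read 9.73, 9.49, 9.50 and 9.27. These 3 genes were lower in Trib1-/- GMP by less than that spread.

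**Figure D2:**
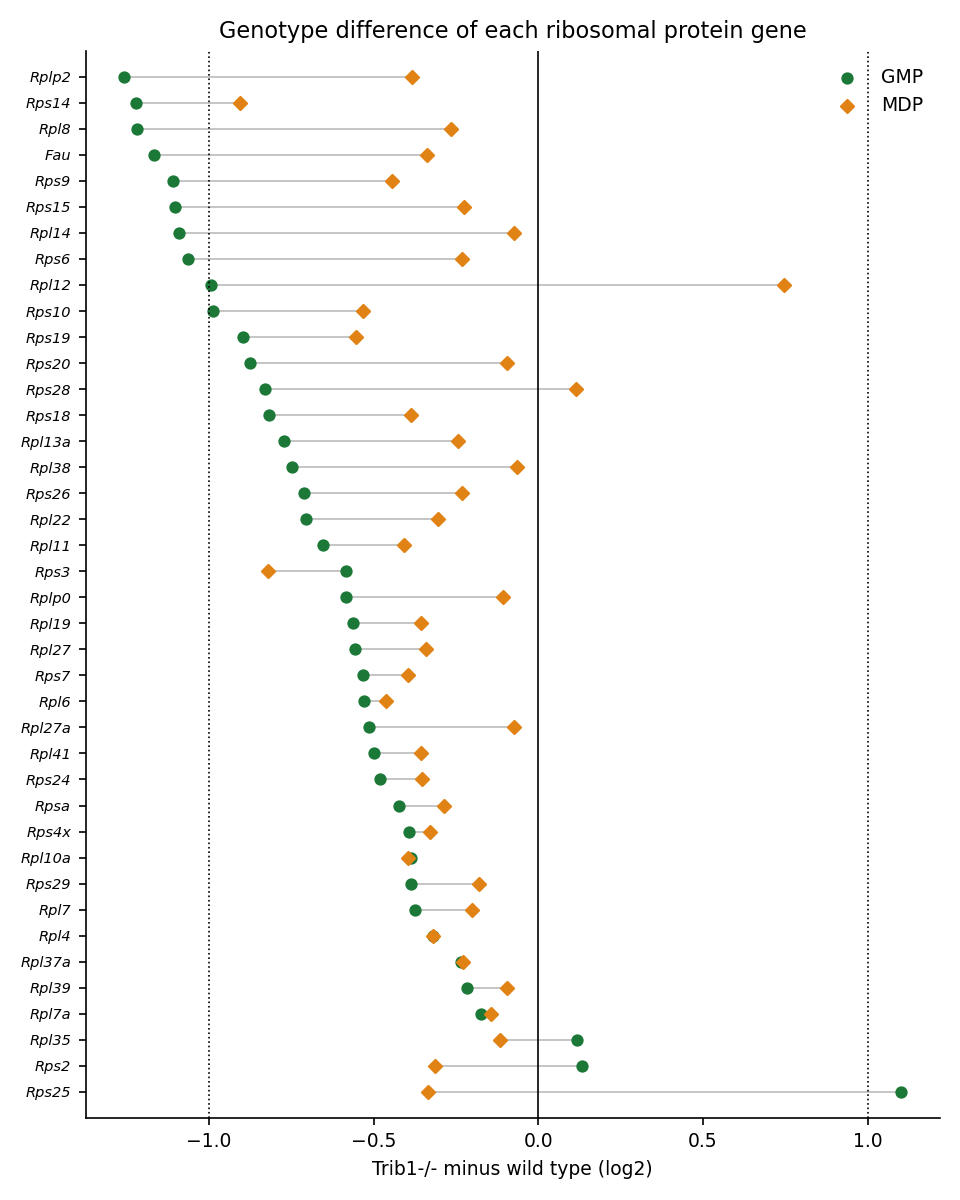
Difference between the genotypes for each of the 40 genes (horizontal axis, Trib1-/- minus wild type, log2), with green circles for GMP and orange diamonds for MDP, ordered by the GMP difference, dotted lines at 2-fold and a line joining the readings of a gene. All but 3 circles and all but 2 diamonds lie left of 0, 8 circles lie beyond the 2-fold line on the left and no diamond does.

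Genes with a higher level tended to differ less in GMP. Across the 40 genes, mean level and the GMP difference had a Spearman rho of 0.554 and a Pearson r of 0.222, and over the 34 genes with a mean of at least 7 these were 0.719 and 0.679. The points come from the same arrays, and the mean contains the values that are compared, so this is a description of these arrays. The plot of difference against level shows the other genes at the same brightness around 0 in GMP.

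**Figure D3:**
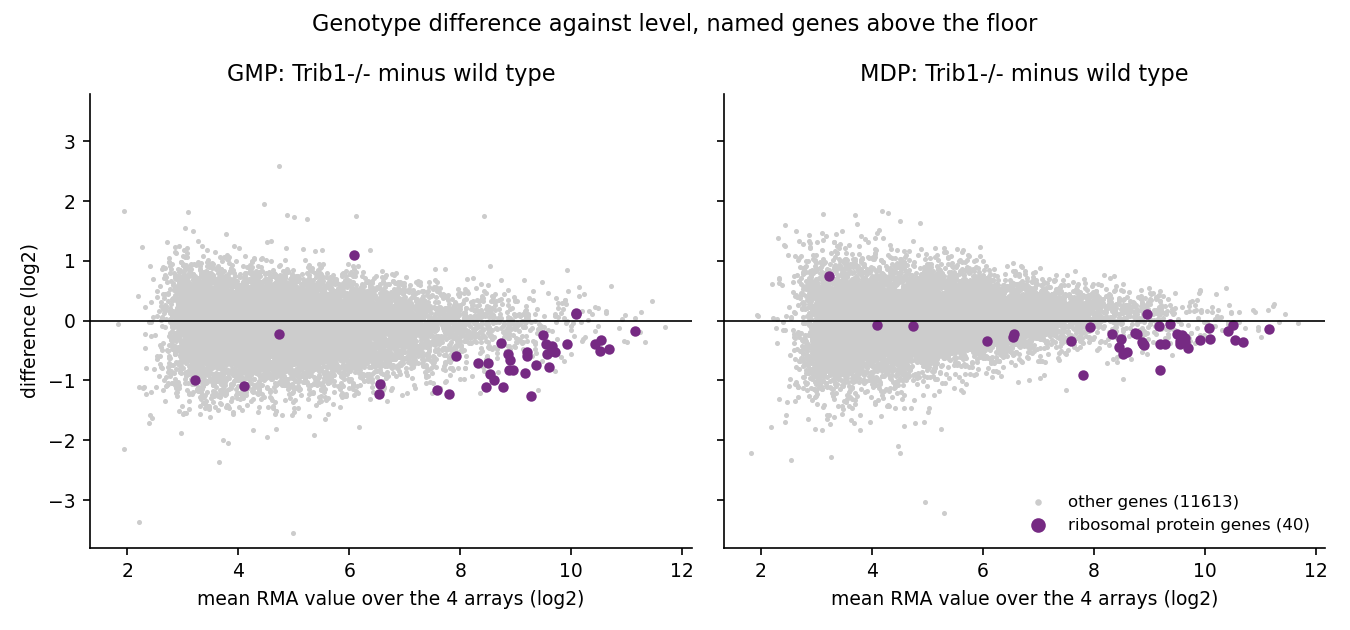
Difference between the genotypes (vertical axis, Trib1-/- minus wild type, log2) against mean level over the 4 arrays (horizontal axis, log2) for GMP on the left and MDP on the right, with the 40 ribosomal protein genes in purple and 11613 other genes in grey. The purple points lie mostly at the bright end and below 0 in both panels, and farther below in GMP.

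The second comparison asked the same of MDP. In the array labelled Trib1-/-, 38 of the 40 genes were lower than in wild type, against 48.5% of all genes, and the median difference was -0.31 (1.24-fold lower), with quartiles of -0.38 and -0.17. No gene of the 40 was at least 2-fold lower (1.53% of all genes) or higher (1.1%). The median of all genes was 0.01. Probe sets of a single gene typically spread by 0.30 in this comparison (SD over genes with several), about the size of the median over the 40 genes. Among the 256 other genes at that level the median was 0.13, and 31.6% were below 0.

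The 4 genes that stood lowest in Trib1-/- MDP all belong to the small subunit. Rps14 differed by -0.91 (1.87-fold lower). Rps3, which has a role in DNA repair as well, read 10.09, 9.50, 9.02 and 8.20, and was 1.76-fold lower between the MDP genotypes. Rps19, the gene most often mutated in Diamond-Blackfan anaemia, read 9.50, 8.60, 8.28 and 7.73, and Rps10, of the head, read 9.66, 8.67, 8.32 and 7.78. Each of these 4 genes stepped down over the 4 arrays in the order given above.

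The 4 genes at the other end were of both subunits. Rpl12, at the base of the stalk, read 4.27, 3.28, 2.31 and 3.06, and its difference of 0.75 between the MDP genotypes lies between values that are both under the floor. Rps28, of the small subunit head, read 9.66, 8.83, 8.60 and 8.72, with a difference of 0.11. Rpl38, which is needed for translation of Hox messages in the embryo, read 10.05, 9.30, 9.10 and 9.04, with a difference of -0.06 between the MDP genotypes against -0.75 between the GMP genotypes. Rpl14 differed by -0.07 in MDP. None of these 4 differences but that of Rpl12 exceeds the spread between probe sets of a gene in this comparison, which was 0.30.

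Set side by side, 35 of the 40 genes were lower in Trib1-/- cells of both progenitors, against 25.6% of all genes. The GMP difference was the more negative in 35 of the 40, against 55.6%. How far a gene stood from 0 in GMP told little of how far it did in MDP. Over the 40 genes, whose GMP and MDP differences share no array, Pearson's r was 0.034 and Spearman's rho 0.144, and over the 34 with a mean of at least 7 they were 0.303 and 0.290. Rps3 was the gene furthest from the usual pattern among those lower in both, at -0.58 in GMP and -0.82 in MDP. At the other end was Rpl14, at -1.09 and -0.07.

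Genes with roles of their own beyond these ends of the range were lower in Trib1-/- cells too. Rpl11, which with 5S RNA and Rpl5 restrains Mdm2 when ribosome assembly fails, read 9.64, 8.99, 8.68 and 8.28. Rpl22, which is needed for the development of alpha-beta T cells, read 9.37, 8.67, 8.12 and 7.82. Rpl13a, released from the ribosome to silence inflammatory messages after interferon gamma, read 10.42, 9.65, 9.27 and 9.03. All 3 genes followed the order of arrays found in most of the group. Rplp0, which anchors the stalk, read 8.69, 8.11, 7.51 and 7.41, and Rpsa, also known as the laminin receptor, read 10.14, 9.71, 9.51 and 9.23. The GMP difference of Rpsa, -0.42, was smaller than the median of the group.

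By subunit, the median difference between the GMP genotypes was -0.82 over the 19 small subunit genes and -0.56 over the 21 large subunit genes, and between the MDP genotypes it was -0.33 and -0.24. Of the 8 genes at least 2-fold lower in Trib1-/- GMP, 5 belong to the small subunit and 3 to the large. Of 10 small subunit genes mutated in Diamond-Blackfan anaemia, 7 were above the floor. All 7 were lower in Trib1-/- GMP, from -0.99 in Rps10 to -0.39 in Rps29, with a median of -0.71. In the whole group 37 of the 40 were lower there, with a median of -0.58, and of all genes 55.2%. In MDP 6 of the 7 were lower, with a median of -0.35, beside 38 of the 40, with a median of -0.31, and 48.5% of all genes. The counts of these 7 genes are thus near those of the whole group. Of 9 large subunit genes mutated in it, 3 were above the floor, and 2 of these were lower in Trib1-/- GMP (median -0.56), with Rpl35 at 0.12. All 3 were lower in Trib1-/- MDP (median -0.34). Of the 9 genes listed around the exit of the peptide tunnel, 5 were measured, with medians of -0.56 in GMP and -0.11 in MDP. The 3 measured genes of the stalk, Rplp0, Rplp2 and Rpl12, were each lower in Trib1-/- GMP, with differences from -0.58 to -1.26. Rpl12 was kept through wild-type GMP alone, so its direction there was fixed by the floor.

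The remaining comparisons set MDP against GMP within a genotype. In wild type, 37 of the 40 genes were lower in MDP (52.6% of all genes), with a median of -0.93 (1.90-fold lower). At least 2-fold lower were 18 genes, against 12.4% of all genes, and at least 2-fold higher was Rps25 alone, against 4.16%. Cyclic loess scaling gave 8 in place of 18, with a median of -0.67. In Trib1-/- cells 36 of the 40 genes were lower in MDP (51.3% of all genes), with a median of -0.50 (1.41-fold lower). Rps3 and Rps14 were at least 2-fold lower there, against 4.08% of all genes, and no gene of the 40 was at least 2-fold higher, against 2.75%. Rps3 was at -0.67 by the mean of its probe sets and at -0.74 by its lowest-mean probe set above the floor, both under 2-fold, while Rps14 was past 2-fold in both settings. Without probe sets of the shared-probe suffixes Rps14 had no value. The medians of the other genes at that level were -0.18 in wild type and -0.004 in Trib1-/- cells. The wild-type difference shares the wild-type GMP array with the GMP genotype difference, and the Trib1-/- difference shares the Trib1-/- GMP array with it.

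In wild type the lowest with both values above the floor were Rpl14 (-1.89) and Rpl8 (-1.78), both of the large subunit. Rpl12 differed by -1.96 to a value under the floor in MDP, and by -0.99 with that value set to the floor, so its place is not settled. With 32 added to the linear values Rpl14 and Rpl12 came to -0.75 and -0.47. The highest were Rps25 (2.07), Rpl35 (0.27) and Rps2 (0.15). In Trib1-/- cells the lowest were Rps3 (-1.30), Rps14 (-1.21) and Rps10 (-0.89), all of the small subunit. The highest there were Rps25 (0.63), Rps26 (0.13) and Rps6 (0.10). Rps26, which contacts messenger RNA at the exit channel, read 8.74, 8.03, 8.39 and 8.16. The wild-type and Trib1-/- differences, which share no array, had an r of 0.695 and a rho of 0.673 over the 40 genes.

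**Figure D4:**
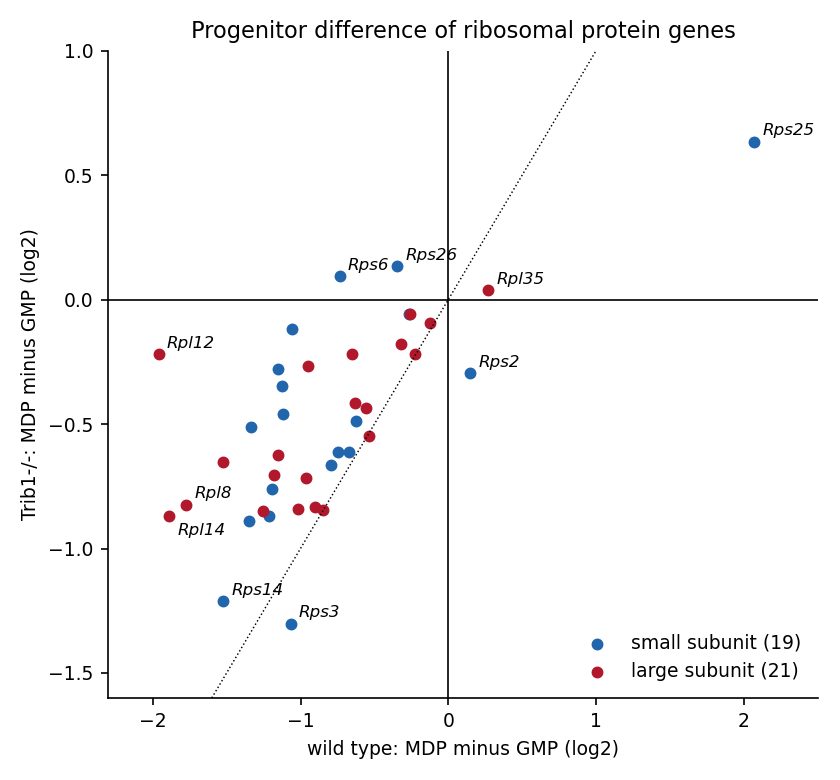
Difference between MDP and GMP for each of the 40 genes, in wild type (horizontal axis, log2) and in Trib1-/- cells (vertical axis, log2), with genes of the small and large subunits in separate colours and a dotted line of equal differences. Most points lie left of 0 and above the dotted line, so the wild-type difference is the more negative, and Rps25 stands alone at the upper right.

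Ribosomal protein genes have many processed pseudogenes with near-identical sequence, and probe sets may read several copies. Of the 40 probe sets used, 12 carry the suffix x and 2 the suffix s, which mark probes shared with other transcripts. For 20 of the genes more than 1 probe set was above the floor, 62 in all. Between the GMP genotypes all probe sets of a gene pointed the same way in 17 of these 20 genes (not in Rps18, Rps20 and Rps4x). Between the MDP genotypes they did so in 12 (not in Rpl22, Rpl41, Rpl7, Rps18, Rps20, Rps28, Rps9 and Rpsa). Of the 42 probe sets not used above, 34 were lower in Trib1-/- GMP (median -0.64) and 33 in Trib1-/- MDP (median -0.24). Of all genes, 55.2% and 48.5% were lower in these comparisons.

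Probe sets annotated to several genes at once were outside the rule and are given as a group. Of those with a ribosomal protein symbol among others, 74 above the floor named none of the 40 genes. Lower in Trib1-/- GMP were 69 of the 74 (55.2% of all genes), with a median of -0.51 and 7 at least 2-fold lower (3.16% of all genes). Lower in Trib1-/- MDP were 58 (48.5% of all genes), with a median of -0.18. From GMP to MDP the medians were -0.69 in wild type and -0.23 in Trib1-/- cells.

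Other genes of ribosome production and translation were taken from lists. Of all genes, 55.2% were lower in Trib1-/- GMP. In Trib1-/- GMP, ribosome assembly factors had a median of -0.32, with 37 of 47 genes lower, from Imp3, of the small subunit processome, at -1.03 to Noc2l at 0.56. Genes of RNA polymerase I, which makes ribosomal RNA, had a median of -0.28, with 12 of 17 lower, from Polr1c (-1.08) to Polr1a (0.53). Subunits of initiation factor 3 had a median of -0.61, close to that of the ribosomal protein genes, with 10 of 11 lower, from Eif3k (-1.04) to Eif3a (0.04). The list of other initiation factors had a median of -0.29, with 16 of 20 lower, from Eif1b (-0.99) to Eif2b5 (0.20). It also holds the Eif4e-binding proteins Eif4ebp1 (-0.42) and Eif4ebp2 (0.12), which are not initiation factors. All 6 genes of the elongation factor list were lower, with a median of -0.25 and Eef2 nearest to 0 (-0.04). The lowest was Eef1e1 (-1.21), listed by its symbol and not by a role in elongation, and the next was Eef1d (-0.82). All 8 of the other messages with a terminal oligopyrimidine tract were lower, from Nop53 (-0.62) to Pabpc1, the poly(A) binding protein (-0.11).

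For the mitochondrial ribosome, a separate particle, 66 of 73 genes were lower in Trib1-/- GMP (median -0.63), from Mrpl23 (-1.64) to Mrps7 (0.41). At least 2-fold lower were 13 of the 73, against 3.16% of all genes. Mrpl58, Mrpl36, Mrps27 and Mrpl4 were kept through wild-type GMP alone, so their direction there was fixed by the floor. In Trib1-/- MDP these lists lay nearer to 0 than the cytosolic ribosomal protein genes. Of all genes, 48.5% were lower there. The mitochondrial ribosome had a median of -0.08 (44 of 73 lower), with Mrps24 at -1.45, to a value just under the floor, and Mrpl58 at 0.93 between values under the floor. Initiation factor 3 had a median of -0.24 (6 of 11 lower), with Eif3k at -0.55 and Eif3b at 0.38. Ribosome assembly factors stood at 0.12 (16 of 47 lower), with Nhp2 at -0.58 between values under the floor and Utp6 at 0.92. RNA polymerase I stood at 0.07 (7 of 17 lower), with Taf1c at -0.77 and Polr1e at 0.94. The list of other initiation factors stood at 0.11 (5 of 20 lower), with Eif2b1 at -0.64 and Eif4e at 0.44. The elongation factor list stood at -0.07, with Eef2 at -0.31, Eif5a at 0.18 and Eef1e1 at 0.31 between values under the floor. The other tract-bearing messages stood at -0.02, with Naca at -0.35 and Btf3 at 0.27.

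**Figure D5:**
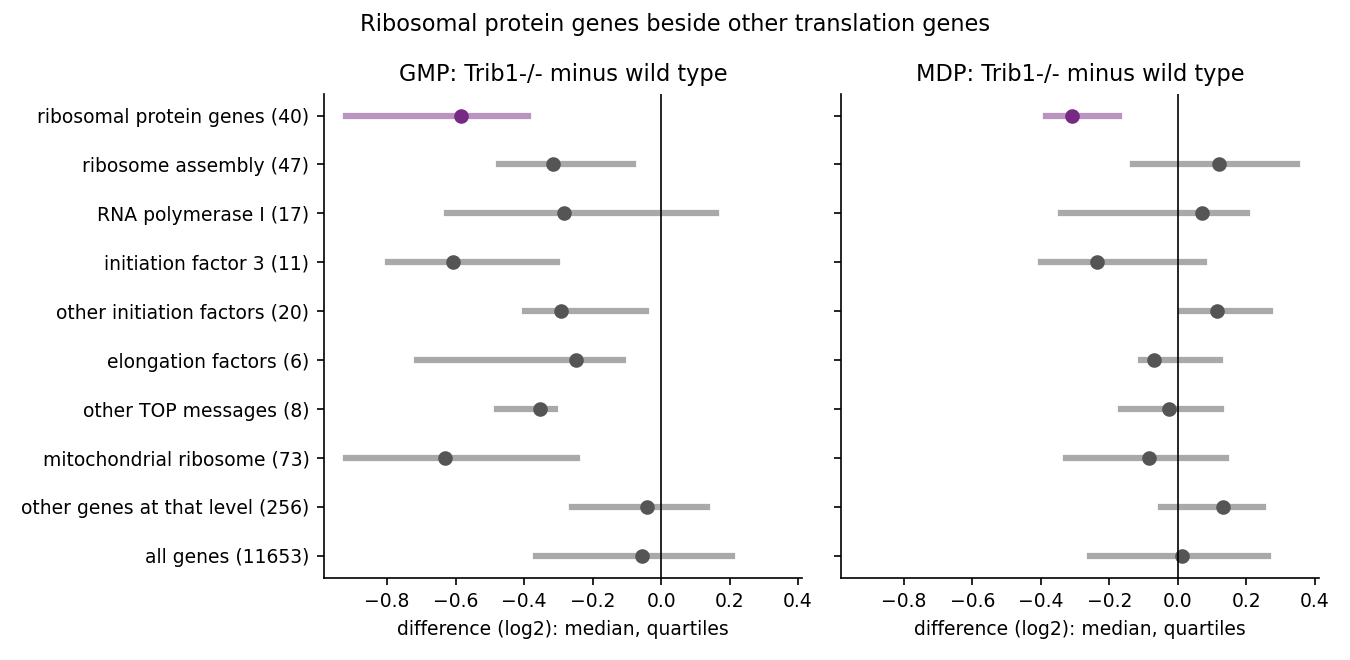
Median (point) and quartiles (bar) of the difference between the genotypes (horizontal axis, Trib1-/- minus wild type, log2) for the 40 ribosomal protein genes, in purple, and for other gene lists, in grey, with the number of genes in brackets and TOP for terminal oligopyrimidine tract. In GMP all lists of translation genes have medians below 0, and in MDP the ribosomal protein genes have the lowest median of those drawn.

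Several array-wide values also differed between the arrays, though not all in the same direction. The spiked hybridisation controls BioB and BioC, added to every sample, averaged 10.20 in wild-type GMP, where ribosomal protein genes were highest. On the other arrays they averaged 10.57, 10.85 and 10.72, so between the MDP genotypes they were lower in Trib1-/- (-0.13). The controls BioDn (12.88, 12.95, 13.02 and 12.96) and CreX (14.03, 14.04, 14.03 and 14.03) were nearly level. The 3' probe set of Gapdh exceeded the 5' one by 1.06, 1.20, 1.44 and 1.66, a sign of RNA or amplification quality. The like difference for Actb was 2.01, 1.91, 2.01 and 1.67, and moved the other way from Gapdh in both genotype comparisons. Basophil and mast cell markers, 7 of 8 measured, had a summed linear level of 482.6, 199.7, 74.3 and 61.4, with all 7 above the floor in wild-type GMP and 6 in Trib1-/- GMP. Erythroid markers, 6 of 9 measured, summed to 94.4, 59.5, 49.1 and 27.2, but only Car2 reached the floor and Hba-a1 read at most 1.72. Resident macrophage markers, 12 of 13 measured, summed to 148.6, 120.8, 514.9 and 120.1. Lymphoid markers, 7 of 9 measured, summed to 56.5, 57.5, 83.3 and 85.2. The part of these values in the differences of the ribosomal protein genes was not tested. In sorted bulk samples a change in the mix of cells and a change in RNA per cell cannot be told apart.

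The markers of the labelled populations separated GMP from MDP but not fully as the labels name them. Elane, the neutrophil elastase of GMP, read 9.57 and 9.03 in GMP and 4.24 and 3.50 in MDP, and Csf1r read at most 6.01 in GMP and at least 7.81 in MDP. Prtn3, Ctsg, Ms4a3 and Cebpa of the GMP list were lower in both MDP arrays too. Flt3, Irf8 and Ccr2 of the MDP list were higher there. Mpo, of the GMP list, still read 10.04 and 9.93 in MDP, against 11.90 and 11.99 in GMP. Cx3cr1, of the MDP list, hardly separated them (5.34, 5.06, 5.67 and 5.36). Cd34, on both lists, read 7.52, 7.19, 6.16 and 6.50. Kit, usually present on both progenitors, read 2.43 and 2.69 in MDP, under the floor. The Trib1 probe set read 4.95 in wild-type GMP and 5.10 in Trib1-/- GMP, and 5.99 and 5.56 in the MDP pair. It does not separate the genotypes and so does not check the labels.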

How the data were processed

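RNA from 4 sorted populations was hybridised to 1 Affymetrix array each, after Trizol extraction and NuGEN Ovation labelling, per the labels' protocols. The authors deposited values made with RMA, per the submitters' processing notes; RMA corrects background, makes the arrays' distributions alike and summarises the probes, so a change in total RNA per cell cannot be seen. The deposited values are taken as log2, which was inferred from their range, 0.14 to 14.5. The sources used here do not state the version of RMA or the array batches. The precision is limited by the number of arrays, 1 per group.

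Of 45101 probe sets, 64 controls were left out, 34945 with 1 gene symbol were used for genes and 932 with several only as a group. A gene was its probe set with the highest mean, and was kept where its highest value reached the median of all values. Differences were Trib1-/- minus wild type in each progenitor and MDP minus GMP in each genotype, counted at 2-fold. No test was made. The ribosomal protein genes and all lists were chosen with earlier results of these data known. Genes were named by a rule: the 6 lowest and 6 highest GMP differences, the 4 lowest and 4 highest MDP differences, the 3 lowest and 3 highest of each MDP against GMP difference, a set of genes with known roles, the extreme genes of each translation list, and, chosen after their values were seen, the other genes past 2-fold. Lists of progenitor, erythroid, basophil, macrophage and lymphoid markers gave summed linear levels. The GMP list (8 of 8 genes measured) summed to 7791.5, 6799.4, 1446.9 and 1381.2, and the MDP list (8 of 8) to 489.6, 413.4, 787.6 and 843.2, wild type before Trib1-/- and GMP before MDP. Promoter sequences are from RefSeq, GRCm38.p6. Alternatives changed the floor, the probe set, the scaling, an offset and the fold. The calculation of counts and medians was checked on simulated data with small noise and single-gene shifts well past 2-fold. That checks the calculation and not how stable the counts are on these arrays. Python 3.11.15, pandas 2.3.3, R 4.3.3 and limma 3.58.1 (cyclic loess only) were used.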

Additional observations from a re-analysis of the deposited data

Results flagged for a closer look

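For a few ribosomal protein genes the arrays pointed in opposite directions in the 2 settings of a comparison. With 1 array per group none of these differences was tested. Between the genotypes, Rps25 was higher in Trib1-/- GMP (1.10) and lower in Trib1-/- MDP (-0.33), so that the GMP difference minus the MDP difference was 1.435. The same quantity was 0.445 for Rps2 (0.13 and -0.31) and 0.231 for Rpl35 (0.12 and -0.11). It was -0.942 for Rps28, which was lower in Trib1-/- GMP (-0.83) and above 0 in Trib1-/- MDP (0.11), and -1.740 for Rpl12 (-0.99 and 0.75), both of whose MDP values lie under the floor. With every value under the floor set to the floor, Rpl12 differed by -0.99 in GMP and by 0 in MDP. The GMP differences of Rps2 and Rpl35 lie within the spread between probe sets of a gene there (0.27). So do the MDP differences of Rpl35 and Rps28 in MDP (0.30). The other probe sets of Rps28 differed by -0.13 and 0.16 in MDP.

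Between the progenitors, Rps2 was higher in MDP in wild type (0.15) and lower in Trib1-/- cells (-0.30), a difference of 0.445 between the genotypes. Rps26 was lower in wild-type MDP (-0.34) and above 0 in Trib1-/- cells (0.13), a difference of -0.479, and Rps6 likewise (-0.74 and 0.10), a difference of -0.831. For Rps6 the value in Trib1-/- GMP, 6.19, was the lowest of its 4 arrays. The Trib1-/- differences of Rps26 and Rps6 lie within the spread between probe sets of a gene in that comparison (0.24). The wild-type difference of Rps2 lies within the spread for wild type (0.31).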

How the results depend on the processing

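Every median difference of the ribosomal protein genes stayed below 0 under the alternatives run, from -0.62 to -0.43 between the GMP genotypes, -0.36 to -0.24 between the MDP genotypes, -0.93 to -0.67 between progenitors in wild type and -0.51 to -0.34 in Trib1-/- cells. Over 11 settings, 16 counts differed from the reported one by over 1.5 times, or came from or went to 0, and are given here. Under cyclic loess the medians were -0.43 and -0.36 between the GMP and MDP genotypes, and -0.67 and -0.48 between progenitors in wild type and in Trib1-/- cells. The counts of genes at least 2-fold apart were less stable. In Trib1-/- GMP, 8 lower became 5 with arrays centred on the median at or above the floor, 4 centred on genes above the 75th percentile, 5 with 32 added to the linear values and 19 at 1.5-fold, and the 1 higher became 0 with 32 added. Centring moved the median of all genes between the GMP genotypes from -0.06 to 0.04 or 0.08, and in wild-type progenitors from -0.04 to 0.09 or 0.13. With it, the share of all calls that were lower went from 86.8% to 69.9% or 63% and from 74.9% to 58.9% or 52.6%. Between the MDP genotypes, 0 lower became 1 under cyclic loess and 2 at 1.5-fold, and 0 higher became 1 at 1.5-fold. In wild-type progenitors, 18 lower became 8 under cyclic loess, 11 centred on the 75th percentile and 29 at 1.5-fold. In Trib1-/- progenitors, 2 lower became 1 with the mean of probe sets, 1 without shared-probe suffixes, 1 with the lowest-mean probe set and 18 at 1.5-fold, and 0 higher became 1 at 1.5-fold. The setting that raises values below the floor to it was chosen after seeing the data. No array could be left out, since each group has 1. Beyond the construction of each setting, the cause was not tested. With 1 array per group, the spread between animals, sorts and hybridisations is unknown. Signal near the background limits Rpl12 most, since it reached the floor on 1 array.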

Other observations

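Relatives of the ribosomal protein genes were read apart from the 40 genes. Rpl22l1, a paralog of Rpl22, read 8.37 and 7.44 in wild-type and Trib1-/- GMP and 7.05 and 6.84 in the MDP pair, the same order of arrays as Rpl22. Of 5 measured paralogs, 4 were lower in Trib1-/- GMP, with a median of -0.66, and Rpl39l was above 0 at 0.29. Rps4l, 1 of the 4, was kept through wild-type GMP alone (3.33), so its direction there was fixed by the floor. With values under the floor set to it, its GMP difference was -0.05. In Trib1-/- MDP the median of the paralogs was -0.03, and Rps4l was at 0.63 between values under the floor. Of 8 measured host genes of small nucleolar RNAs, whose messages share the terminal oligopyrimidine tract, 7 were lower in Trib1-/- GMP (median -0.48) and 6 in Trib1-/- MDP (median -0.13). Beside both lists, 55.2% of all genes were lower in Trib1-/- GMP and 48.5% in Trib1-/- MDP. Snhg8 differed by -1.16 in GMP and by 0.33 in MDP. Snhg7 differed by 0.09 in GMP and by -1.82 in MDP, where it read 4.02 in wild type and 2.19, under the floor, in Trib1-/- cells. With that value set to the floor its MDP difference was -0.73.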
